A study of Mus musculus with 28 samples.

Results

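AMP-activated protein kinase (AMPK) is assembled from an alpha, a beta and a gamma subunit, and the genes of its subunits and of its main upstream kinases were followed through polyclonal and clonal mouse kidney cells. The 9 genes were Prkaa1 and Prkaa2 for the catalytic alpha subunits, Prkab1 and Prkab2 for the beta subunits, Prkag1, Prkag2 and Prkag3 for the gamma subunits, and the upstream kinases Stk11 and Camkk2. They were taken by symbol, as the rows of the expression tables whose Ensembl identifier maps to these names. Each symbol matched 1 row, so that 9 of the 45706 genes listed are described.

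AMPK senses a fall in cellular energy. AMP and ADP bind the gamma subunit, the beta subunit acts as the scaffold and carries a glycogen-binding module, and the alpha subunit phosphorylates its targets once a threonine in its activation loop has been phosphorylated. In most tissues that phosphorylation is made by LKB1, the product of Stk11, and after a rise in calcium by the kinase encoded by Camkk2. Active AMPK restrains lipid and protein synthesis and favours glucose uptake and autophagy, and in kidney epithelia it is known to inhibit the chloride channel CFTR.

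RNA was sequenced from 28 libraries of mIMCD-3 cells, an epithelial line derived from inner medullary collecting duct, taken from a mouse carrying SV40 early region genes. There were 7 groups of 4 libraries, all of unedited wild-type cells harvested 4 days after confluency: the polyclonal line, the monoclonal line WT5 grown from a single sorted cell, and subclones 1 to 5, each grown from a single sorted WT5 cell. The question behind the design was how far isolating a clone, and then isolating clones of that clone, changes expression without any editing. AMPK is one of the proteins that the study followed in edited clones. Its phosphorylated form was also measured in unedited monoclonal lines, and the paper reports that its protein level varied among them. WT5 is 1 clone of the polyclonal line, each subclone is 1 clone of WT5, and polyclonal cells and WT5 were sequenced at different times with single-end and paired-end reads, so that line and sequencing cannot be told apart. The subclones stand in another table than WT5, so that a difference which all of them share against WT5 cannot be told apart from one between tables. The methods call the replicates biological and a legend calls them technical, so p-values measure the spread between these libraries, which may be technical.

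All values are TPM, a transcript abundance corrected for length and scaled to the same total in each library, which keeps no library size, so the depth behind them is unknown. Between 16270 and 19272 genes per library were above 0 TPM, and the mean correlation of a library with the others of its group was 0.9836 to 0.9893. The sum of 4 epithelial markers was 1480 to 1740 TPM in polyclonal cells, 2640 to 2720 TPM in WT5 and 1630 to 2070 TPM in the subclones, with Krt8 at means of 360 and 1010 TPM and Cdh1 at 145 and 97.6 TPM in polyclonal cells and WT5. Aqp2, the water channel of collecting duct principal cells, was listed at 0 in all 28 libraries, and 3 of 9 collecting duct markers had a mean of at least 1 TPM over the 28 libraries. Among the 9, Avpr2 had means of 10.6 TPM in polyclonal cells, 0.06 TPM in WT5 and 0.03 to 0.2 TPM in the subclones. Gata3 had 4.08, 0.04 and 0.0725 to 0.158 TPM. Hoxb7, most of the sum, was at 68.0 TPM in polyclonal cells and 55.3 TPM in WT5. Tfcp2l1, Aqp3, Scnn1b and Fxyd4 had higher means in WT5, as with Tfcp2l1 at 8.04 and 10.2 TPM. The summed level of those 9 markers was 83.5 to 95.8 TPM in polyclonal cells, 63.9 to 68.5 TPM in WT5 and 55.0 to 79.7 TPM in the subclones. Markers of endothelium summed to at most 0.29 TPM and those of fibroblasts to at most 2.12 TPM in any library, and 3 leukocyte markers to at most 4.68 TPM. Markers of other tubule segments were low in polyclonal cells and higher in the clones: 3 of proximal tubule summed to 1.43 to 1.61 TPM in polyclonal cells, 3.30 to 4.37 TPM in WT5 and 4.43 to 10.1 TPM in the subclones, and 2 of thick ascending limb to 0.03 to 0.14, 3.22 to 3.52 and 1.84 to 13.3 TPM. Nearly all of this was Lrp2 and Umod, as Slc34a1 was listed at 0 in all 28 libraries and Slc12a1 in 27. These markers moved with the groups in the same way as several genes below, and their part in those results was not tested. In such bulk samples, fewer cells of a type and less RNA per cell cannot be told apart. Among libraries, replicate 1 of subclone 5 was the lowest of its group for 7 of the 8 detected genes and replicate 2 of subclone 3 for 6 of them.

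The promoters of the genes that the comparisons turn on are shown first: Camkk2, Prkab1, Prkag2 and Prkaa2, which rose in WT5, and Prkaa1, which did not pass the test in any of the comparisons but 1. Each line gives the 250 bases before the RefSeq start site on GRCm38.p6, 5′ to 3′ on the strand of the gene, with capitals marking a CCAAT box (CCAAT or ATTGG) or a GC box (GGGCGG or CCGCCC), overlapping matches counted separately. The windows lie at chr5:122779411-122779660 (minus strand) for Camkk2, chr5:116024429-116024678 (minus) for Prkab1, chr5:25100643-25100892 (minus) for the most distal of 3 starts of Prkag2, chr4:105109899-105110148 (minus) for Prkaa2 and chr15:5143611-5143860 (plus) for Prkaa1.
Camkk2: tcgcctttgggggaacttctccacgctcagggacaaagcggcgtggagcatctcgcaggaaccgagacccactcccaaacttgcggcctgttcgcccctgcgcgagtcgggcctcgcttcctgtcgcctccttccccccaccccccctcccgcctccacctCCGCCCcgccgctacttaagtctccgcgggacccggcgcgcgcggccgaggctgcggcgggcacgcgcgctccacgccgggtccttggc
Prkab1: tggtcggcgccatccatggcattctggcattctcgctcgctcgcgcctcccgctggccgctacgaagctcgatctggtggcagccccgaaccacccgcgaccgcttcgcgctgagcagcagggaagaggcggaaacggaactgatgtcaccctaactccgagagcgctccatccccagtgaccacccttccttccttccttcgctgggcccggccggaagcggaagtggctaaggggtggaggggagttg
Prkag2: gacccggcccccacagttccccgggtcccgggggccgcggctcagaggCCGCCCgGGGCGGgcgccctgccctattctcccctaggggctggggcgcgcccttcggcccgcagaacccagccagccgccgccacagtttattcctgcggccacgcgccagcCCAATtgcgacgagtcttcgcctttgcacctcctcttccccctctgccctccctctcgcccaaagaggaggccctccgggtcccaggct
Prkaa2: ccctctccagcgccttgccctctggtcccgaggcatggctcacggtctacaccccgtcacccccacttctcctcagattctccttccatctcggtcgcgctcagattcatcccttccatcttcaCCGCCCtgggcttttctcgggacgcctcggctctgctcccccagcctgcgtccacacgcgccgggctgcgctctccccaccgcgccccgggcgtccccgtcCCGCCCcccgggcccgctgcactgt
Prkaa1: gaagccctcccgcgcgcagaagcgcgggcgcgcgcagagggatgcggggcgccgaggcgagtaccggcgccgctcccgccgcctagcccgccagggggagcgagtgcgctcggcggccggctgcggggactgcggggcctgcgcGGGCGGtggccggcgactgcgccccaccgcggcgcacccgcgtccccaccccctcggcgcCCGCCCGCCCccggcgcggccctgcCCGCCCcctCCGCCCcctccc
The windows are rich in CG dinucleotides, with 32 in Camkk2, 24 in Prkab1, 23 in Prkag2, 24 in Prkaa2 and 45 in Prkaa1, against a median of 6 over 32851 mouse promoters of the same length. The GC box was found 5 times in Prkaa1, 2 times each in Prkaa2 and Prkag2, 1 time in Camkk2 and 0 times in Prkab1, and 32.7% of all promoters hold it. The CCAAT box, held by 33.8% of all promoters, was found in Prkag2 alone among these 5 windows. The windows at the other starts of Prkag2, not shown, held 4 and 34 CG dinucleotides, 0 and 1 GC boxes and 2 and 0 CCAAT boxes. Which start these cells use was not tested. Prkab2, Prkag1 and Stk11, not shown and also not called higher in WT5, held 18, 12 and 24 CG dinucleotides. They held 5, 1 and 0 GC boxes and 0, 1 and 3 CCAAT boxes, so Prkaa1 does not stand for them. A match is a description of the letters and not a measured site.

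Camkk2, Prkab1, Prkag2 and Prkaa2 were higher in WT5 than in polyclonal cells, by 3.04, 2.19, 2.24 and 1.74 times in mean TPM. Their libraries did not overlap between the groups, and nor did those of Prkag1. The share of all genes without overlap was not computed, so a lack of overlap is only a description here and below. Stk11 was lower by the test, while Prkaa1, Prkab2 and Prkag1 did not pass it and Prkag3 was not tested. Groups were compared on log2(TPM) without a pseudocount, scaled within each library to a z-score over genes above 0 TPM in every library, so that 8 of the 9 genes entered. On this scale a z-score difference of 1 corresponds to about 8.56-fold in these 8 libraries, and a gene was called at an adjusted p below 0.01 by limma with Benjamini-Hochberg adjustment over all 13723 genes tested. Of the 8 genes, 5 were called, 4 higher and 1 lower, in a comparison in which 65.5% of all genes tested were called, 34.5% as higher and 30.9% as lower. With a log2 difference above 1 in size as well, 3 were called (Prkab1, Prkag2 and Camkk2), against 25.3% of all genes. With libraries centred on their median, 1 was left above 1, Camkk2 at 1.31, while Prkab1 was at 0.84 and Prkag2 at 0.88, against 23.2% of all genes. With a z-score difference above 1, the rule of the study, 0 of the 8 were called by limma or by the unequal-variance test, the largest difference being 0.45, against 5.43% of all genes. The median log2 difference of the 8 genes was 0.54, beside 0.24 over all genes tested, and their median z-score difference was 0.104 beside 0.00991. The shift of 0.24 in the median of all genes is part of every log2 difference given here, except those from libraries centred on their median. On log2(TPM) without z-scores, 5 genes were called higher, with Prkag1 now among them (adjusted p = 0.00217), and 0 lower, as Stk11 no longer passed (adjusted p = 0.113). The share of all genes called on that scale was not computed, so this split is only a description. With libraries centred on their median, Prkag1 was at -0.01 (adjusted p = 0.831) and Stk11 was called lower.

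**Figure D1:**
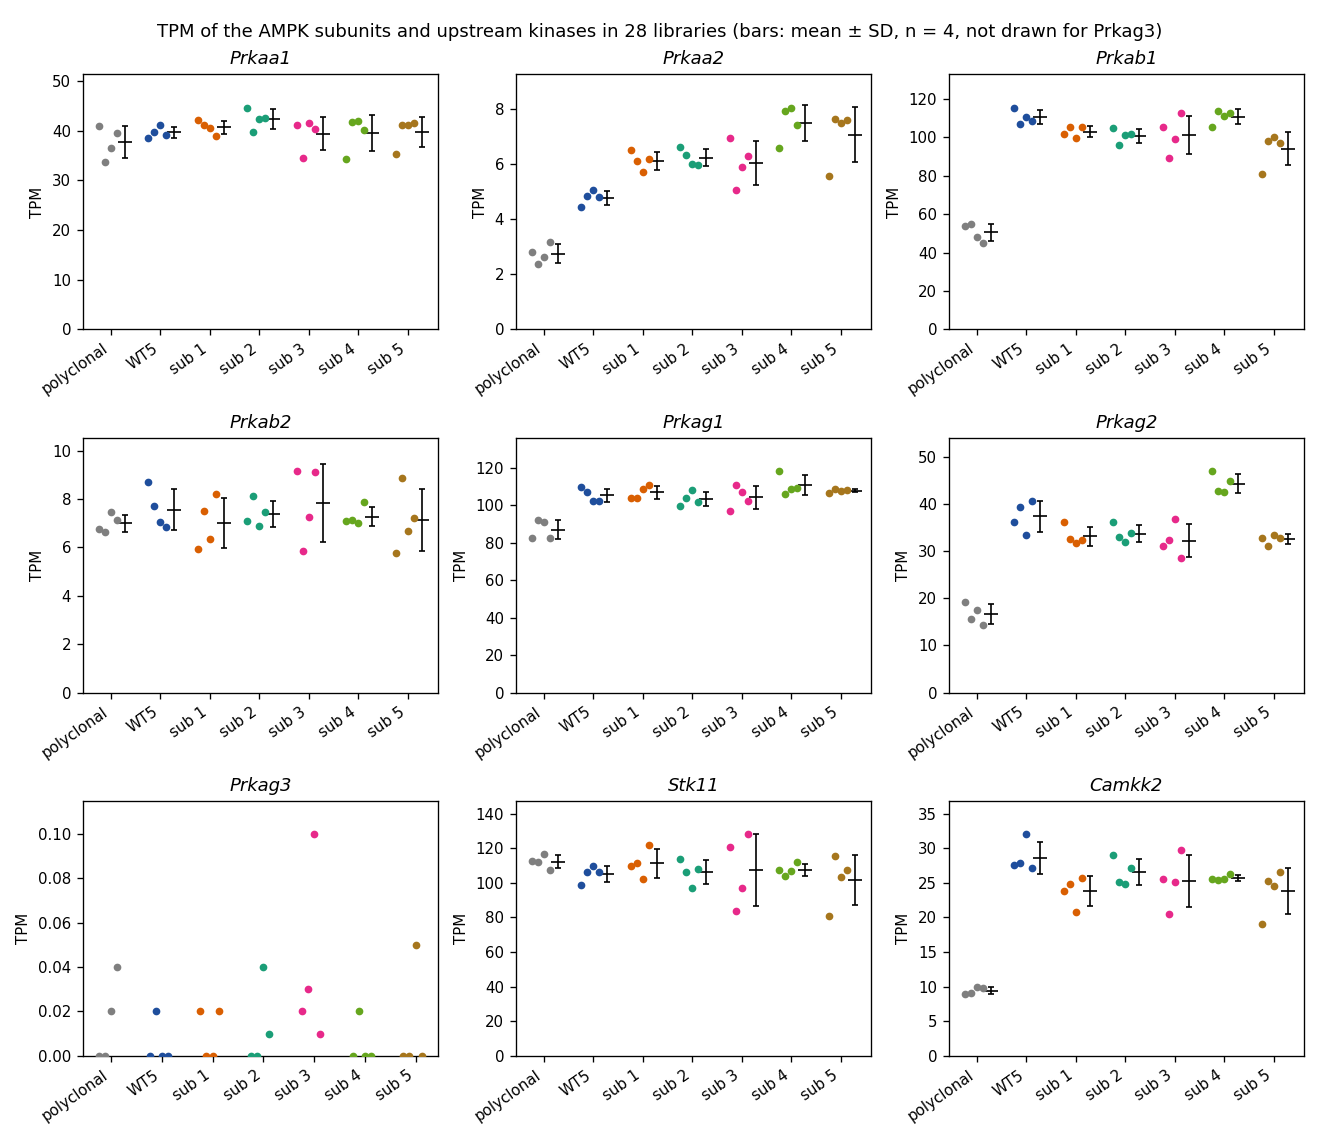
TPM (linear axes from 0, scaled per gene) of the 9 genes in each of the 28 libraries, by group, with mean ± SD (n = 4) beside the points except for Prkag3. Polyclonal libraries lie below all others for Prkaa2, Prkab1, Prkag1, Prkag2 and Camkk2, and subclone 4 lies above the other groups for Prkag2.

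Against WT5, Prkaa2 was the only gene called by limma in all 5 subclones, where it was higher by 1.26 to 1.57 times in mean TPM. In subclone 3 the unequal-variance test, the one the study names, did not call Prkaa2 (adjusted p = 0.0128). Camkk2 had a lower mean than WT5 in all 5, at 0.83 to 0.927 times, and was not called in any of them. The 5 comparisons share the 4 WT5 libraries and ran over 13860 genes, in which a z-score difference of 1 corresponds to about 7.94-fold. In subclone 1, 1 of the 8 genes was called (Prkaa2), against 26.3% of all genes tested. In subclone 2, 2 genes were called (Prkaa2 and Prkaa1), against 26.0% of all genes. In subclone 3, 1 gene was called (Prkaa2), against 19.5%. In subclone 4, 3 genes were called (Prkaa2, Prkag2 and Stk11), against 37.3%, and in subclone 5, 1 gene (Prkaa2), against 21.9%. All these calls were higher in the subclone, where calls in that direction made up 12.7%, 13.4%, 8.65%, 18.2% and 10.2% of all genes tested in subclones 1 to 5. With a log2 difference above 1 added, limma and the unequal-variance test called 0 of the 8 genes in each subclone, where the largest log2 difference was 0.65, against 3.13%, 2.71%, 3.84%, 4.89% and 3.48% of all genes in subclones 1 to 5. With a z-score difference above 1 added, both also called 0 of the 8, the largest z-score difference being 0.21, against 0.152%, 0.144%, 0.173%, 0.202% and 0.173% of all genes.

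An F test over the 20 subclone libraries asked whether the subclones differed among themselves. It called 3 of the 8 genes, Prkag2 (adjusted p = 0.00161), Prkaa2 (adjusted p = 0.00297) and Prkab1 (adjusted p = 0.00759), against 25.0% of all genes tested. In pairs of subclones, each adjusted over all genes, Prkag2 was higher in subclone 4 than in each of the others, Prkaa2 was higher in subclone 4 than in subclones 1 and 3, and Prkab1 was lower in subclone 5 than in subclone 4. Those pairs had 12.7% of all genes called (subclones 4 and 1), 14.7% (4 and 2), 12.4% (4 and 3) and 20.5% (5 and 4).

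**Figure D2:**
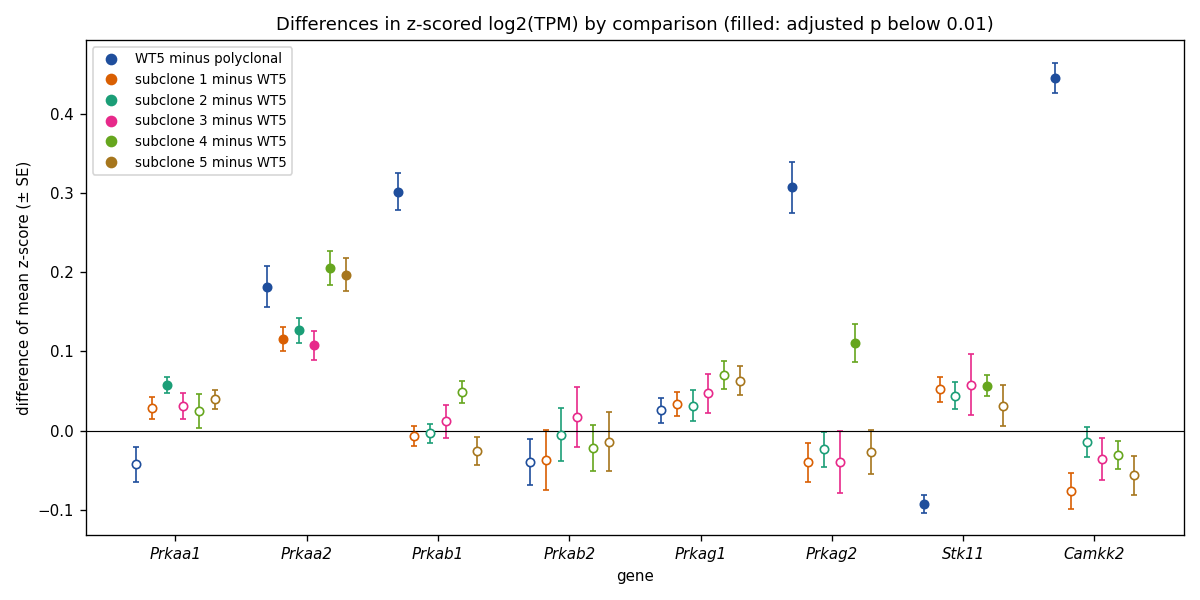
Difference of the mean z-scored log2(TPM) with its SE for the 8 tested genes in 6 comparisons, filled where limma's adjusted p is below 0.01. Camkk2 has the largest difference (0.45, WT5 minus polyclonal), and Prkaa2 is the gene with a filled point in all 6.

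Of the alpha subunits, Prkaa1 (ENSMUSG00000050697, chr15:5143861-5181899, plus strand, GRCm38) was by far the more abundant. Its level was 41.0, 33.7, 36.5 and 39.6 TPM in the polyclonal libraries and 38.6, 39.7, 41.1 and 39.2 TPM in WT5. The groups overlapped, and the difference did not pass the test (z-score difference -0.04, SE 0.02, adjusted p = 0.117), with a sign that depends on the scale, since the log2 difference was 0.08. The 20 subclone libraries ranged from 34.2 to 44.6 TPM, and group means from 39.4 (subclone 3) to 42.3 TPM (subclone 2). Subclone 2, at 44.6, 39.7, 42.3 and 42.6 TPM, overlapped WT5 and was called higher at a z-score difference of 0.06 (SE 0.01, adjusted p = 0.00287). That call was lost without z-scores (adjusted p = 0.167) and without WT5 replicate 1, 2 or 4 (adjusted p = 0.0109, 0.011 and 0.0118).

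Prkaa2 (ENSMUSG00000028518, chr4:105029874-105109890, minus strand), which encodes the alpha 2 subunit known from skeletal muscle and heart, stood at 2.79, 2.38, 2.64 and 3.18 TPM in polyclonal cells and 4.43, 4.84, 5.04 and 4.79 TPM in WT5. Every WT5 library was above every polyclonal one (log2 difference 0.80, z-score difference 0.18, SE 0.03, adjusted p = 0.000355). Values were 6.49, 6.12, 5.69 and 6.18 TPM in subclone 1 and 6.61, 6.33, 6.01 and 5.95 TPM in subclone 2, all above WT5. In subclone 3 the libraries held 6.95, 5.04, 5.87 and 6.30 TPM, the second of them level with the highest WT5 library. Subclone 4 had the highest level of any group, at 6.58, 7.91, 8.04 and 7.41 TPM, and subclone 5 followed at 5.55, 7.62, 7.48 and 7.59 TPM. The z-score differences from WT5 were 0.12, 0.13, 0.11, 0.21 and 0.20 in subclones 1 to 5, with adjusted p of 0.00109, 0.000774, 0.00397, 0.000191 and 0.000509 by limma. The call in subclone 3 was lost without any 1 of the 4 WT5 replicates (adjusted p = 0.0156, 0.0148, 0.011 and 0.0145) and without its own replicate 3 (adjusted p = 0.0132), while without its low replicate 2 the difference was 0.11 (adjusted p = 0.00532). That call was also lost under the unequal-variance test (adjusted p = 0.0128) and by limma on log2(TPM) without z-scores (adjusted p = 0.0408). Without replicate 1 of subclone 5, which lay apart from the other 3, the difference rose to 0.21 (adjusted p = 0.000233).

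Among the subclones, Prkaa2 in subclone 4 exceeded subclone 1 by a z-score of 0.09 (SE 0.02, adjusted p = 0.00806) and subclone 3 by 0.10 (SE 0.02, adjusted p = 0.00449). The order of the group means was polyclonal (2.75), WT5 (4.78), subclone 3 (6.04), subclone 1 (6.12), subclone 2 (6.23), subclone 5 (7.06) and subclone 4 (7.49 TPM). Neighbours among the subclones in this order did not differ past the threshold. The F test no longer passed on log2(TPM) without z-scores (adjusted p = 0.0992). Nor did it pass over genes above 0 TPM in any library with a pseudocount of 0.1 (adjusted p = 0.0174). It held without replicate 1 of subclone 5 (adjusted p = 0.000826) and without replicate 2 of subclone 3 (adjusted p = 0.00567). Of 3 skeletal muscle markers, Myod1 was listed at 0 in all 28 libraries and Ckm did not exceed 0.05 TPM. The third, Acta1, had means of 2.71 TPM in polyclonal cells, 1.99 TPM in WT5 and 0.847, 1.42, 0.755, 1.41 and 0.918 TPM in subclones 1 to 5.

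Of the beta subunits, Prkab1 (ENSMUSG00000029513, chr5:116013586-116024508, minus strand) was the abundant one and differed 2.19 times in mean TPM between the lines, with libraries at 54.0, 54.7, 48.2 and 45.0 TPM in polyclonal cells and 115, 107, 111 and 108 TPM in WT5. The lowest WT5 library was far above the highest polyclonal one (log2 difference 1.14, z-score difference 0.30, SE 0.02, adjusted p = 1.26e-05). Subclone levels were 102, 105, 99.8 and 105 TPM in subclone 1 and 105, 96.0, 101 and 102 TPM in subclone 2. They were 105, 89.0, 99.1 and 113 TPM in subclone 3 and 105, 114, 111 and 113 TPM in subclone 4. Subclone 5 was lowest, at 81.2, 98.4, 100.3 and 96.9 TPM. None of the 5 differences from WT5 passed limma's test (z-score differences from -0.03 to 0.05, lowest adjusted p = 0.0197, in subclone 4), although the TPM of subclones 1, 2 and 5 lay wholly below WT5. Within the subclones, subclone 5 was lower than subclone 4 (z-score difference -0.07, SE 0.02, adjusted p = 0.00101). The F test across subclones depended on single libraries: with each of the 20 left out in turn the adjusted p ran from 0.00225 to 0.03 and no longer passed in 15 cases, among them 0.0115 without replicate 1 of subclone 5 and 0.03 without replicate 4 of subclone 4, and log2(TPM) without z-scores gave 0.153.

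Prkab2 (ENSMUSG00000038205, chr3:97658193-97673812, plus strand), the beta isoform typical of muscle, was low, with group means that differed little. It was at 6.74, 6.64, 7.44 and 7.13 TPM in polyclonal cells and 8.68, 7.69, 7.03 and 6.82 TPM in WT5, with overlapping groups and a difference that did not pass (z-score difference -0.04, adjusted p = 0.242). The log2 difference was 0.11, so the sign again depended on the scale. Over the subclones it ranged from 5.77 to 9.16 TPM, with means from 7.0 (subclone 1) to 7.84 TPM (subclone 3) and CVs up to 20.5% within a group (subclone 3), and passed limma's test in 0 of the 5 comparisons with WT5, where the lowest adjusted p was 0.459 and the lowest unadjusted p 0.354.

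Of the gamma subunits, which bind the adenine nucleotides, Prkag1 (ENSMUSG00000067713, chr15:98812797-98831521, minus strand) was the most abundant. Its level was 82.2, 91.8, 91.0 and 82.5 TPM in polyclonal cells and 109, 107, 102 and 102 TPM in WT5. The groups did not overlap in TPM, but the gene did not pass on the z-score scale (difference 0.03, SE 0.02, adjusted p = 0.179), passed without z-scores (log2 difference 0.28, adjusted p = 0.00217) and had the opposite sign when libraries were centred on their median (-0.01). The subclones ranged from 96.7 to 118 TPM, its group means running from 103 (subclone 2) to 111 TPM (subclone 4), and none of them was called against WT5, the lowest adjusted p being 0.0126 in subclone 4. Its exons share 950 bases with those of B130046B21Rik on the other strand, which was listed at 1.79 TPM on average in polyclonal cells and at most 1.75 TPM elsewhere, and whether the counting used strand is not given in the sources used here.

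Prkag2 (ENSMUSG00000028944, chr5:24862744-25100642, minus strand), whose human counterpart is mutated in a glycogen-storage heart disease, was at 19.1, 15.7, 17.5 and 14.4 TPM in polyclonal cells and 36.1, 39.4, 33.4 and 40.6 TPM in WT5. All WT5 libraries were above all polyclonal ones (log2 difference 1.17, z-score difference 0.31, SE 0.03, adjusted p = 5.98e-05). Subclones 1, 2, 3 and 5 had means of 33.2, 33.7, 32.3 and 32.6 TPM, with libraries from 28.6 to 36.9 TPM, and did not pass against WT5. Subclone 4 stood apart at 47.1, 42.8, 42.6 and 45.0 TPM, above every WT5 and every other subclone library. It exceeded WT5 by a z-score of 0.11 (SE 0.02, adjusted p = 0.00634), a call that was lost without any 1 of its own 4 replicates (adjusted p from 0.0113 to 0.019), without WT5 replicate 1 or 2 (adjusted p = 0.0184 and 0.0115) and under an unequal-variance test (adjusted p = 0.0199). Against the other subclones the differences were larger, at 0.15 against subclone 1 (adjusted p = 0.00106), 0.13 against subclone 2 (adjusted p = 0.00249), 0.15 against subclone 3 (adjusted p = 0.0011) and 0.14 against subclone 5 (adjusted p = 0.00146). The F test held without each library in turn except replicate 1 of subclone 4 (adjusted p = 0.0111). Exons of Prkag2 share 795 bases with the opposite-strand gene Prkag2os2, listed at no more than 0.77 TPM outside polyclonal cells and 0.15 TPM on average in them, and 142 bases with Prkag2os1, listed at 0.0225 TPM on average in polyclonal cells and 0 elsewhere.

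Prkag3 (ENSMUSG00000006542, chr1:74738922-74749221, minus strand), a gamma isoform largely confined to glycolytic skeletal muscle, was listed at 0 in 15 of the 28 libraries and reached at most 0.1 TPM. The polyclonal libraries held 0, 0, 0.02 and 0.04 TPM and the WT5 libraries 0, 0.02, 0 and 0 TPM. The highest value, 0.1 TPM, was in replicate 3 of subclone 3. With zeros in every group but subclone 3, the gene entered no test and no fold is given.

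Of the upstream kinases, Camkk2 (ENSMUSG00000029471, chr5:122731170-122779409, minus strand), the calcium-dependent one, had the largest difference of the set. It was at 8.96, 9.12, 9.89 and 9.75 TPM in polyclonal cells and at 27.6, 27.8, 32.0 and 27.1 TPM in WT5 (log2 difference 1.60, z-score difference 0.45, SE 0.02, adjusted p = 5.27e-07). The highest polyclonal library, at 9.89 TPM, was below the lowest of all other libraries, at 19.0 TPM. Subclone 1 had 23.8, 24.8, 20.7 and 25.7 TPM, subclone 4 had 25.6, 25.4, 25.6 and 26.3 TPM, and subclone 5 had 19.0, 25.3, 24.5 and 26.6 TPM, all below WT5. Subclones 2 and 3, at 24.9 to 29.0 and 20.5 to 29.7 TPM, overlapped WT5. In z-score, the 5 differences from WT5 ran from -0.08 in subclone 1 to -0.01 in subclone 2 and did not pass, the lowest adjusted p being 0.0308 in subclone 1.

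Stk11 (ENSMUSG00000003068, chr10:80115803-80130682, plus strand), which encodes the tumour suppressor kinase LKB1, was the highest of the 9 genes in polyclonal cells, at 113, 112, 117 and 107 TPM, beside 99.0, 106, 109.8 and 106 TPM in WT5. The groups overlapped in TPM, and the call as lower rests on a small and even difference in z-score (-0.09, SE 0.01, adjusted p = 0.00017). It did not pass without z-scores (log2 difference -0.09, adjusted p = 0.113) or when all 28 libraries shared a fit (adjusted p = 0.0131), and it passed with libraries centred on their median (log2 difference -0.38, adjusted p = 3.76e-05). Subclones ranged from 80.9 to 128 TPM, widest in subclone 3 (121, 83.5, 97.0 and 128 TPM) and narrowest in subclone 4 (107, 104, 107 and 112 TPM). Subclone 4 was called higher than WT5 by a z-score of 0.06 (SE 0.01, adjusted p = 0.0093), but the libraries overlapped and the call was lost without WT5 replicate 1, 2, 3 or 4 and without subclone 4 replicate 1, 3 or 4 (adjusted p from 0.0149 to 0.0263), and in 16 of the 18 alternatives run in all. Its exons share 232 bases with Cbarp on the other strand, which was at 14.9 TPM on average in polyclonal cells and up to 53.6 TPM in other libraries, and the part of such reads in its level was not tested.

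The share of each isoform in its subunit class was also computed. Prkaa1 made up 93.2% ± 0.459 (SD, n = 4) of the alpha TPM in polyclonal cells, 89.2% ± 0.305 in WT5 and 86.9, 87.2, 86.7, 84.1 and 85.0% in subclones 1 to 5. Every WT5 library was below every polyclonal one, and every subclone library below every WT5 one. Prkab1 made up 87.8% ± 1.49 of the beta TPM in polyclonal cells, 93.6% ± 0.535 in WT5 and 92.9 to 93.8% in the subclones. Prkag1 made up 83.9% ± 1.95 of the gamma TPM in polyclonal cells and 73.8% ± 1.80 in WT5. In subclone 4 it held 71.4% ± 0.435, and in the other subclones 75.4 to 76.8%. Of 18 share comparisons tested by two-sided exact permutation, 9 reached 0.0286, the smallest p that 4 against 4 libraries allow, or 0.0571 after Benjamini-Hochberg adjustment, so that 0 passed an adjusted 0.05. These were all 6 alpha comparisons, the beta and gamma shares of WT5 against polyclonal cells, and the gamma share of subclone 5 against WT5, while subclone 4 had p = 0.0571 by exact permutation (adjusted 0.103) for its lower gamma share.

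The alpha genes summed to 40.4 ± 3.53 TPM in polyclonal cells and 44.4 ± 1.29 TPM in WT5 (SD, n = 4), with overlapping libraries. The beta genes summed to 57.4 ± 4.36 and 118 ± 4.29 TPM, and the gamma genes to 104 ± 5.43 and 142.5 ± 4.96 TPM, in both cases without overlap. In the subclones the alpha sum had means of 45.4 to 48.5 TPM, the beta sum 101 to 118 TPM and the gamma sum 136 to 155 TPM, the highest gamma sum being that of subclone 4. These sums are levels of RNA, and the sums were not tested.

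**Figure D3:**
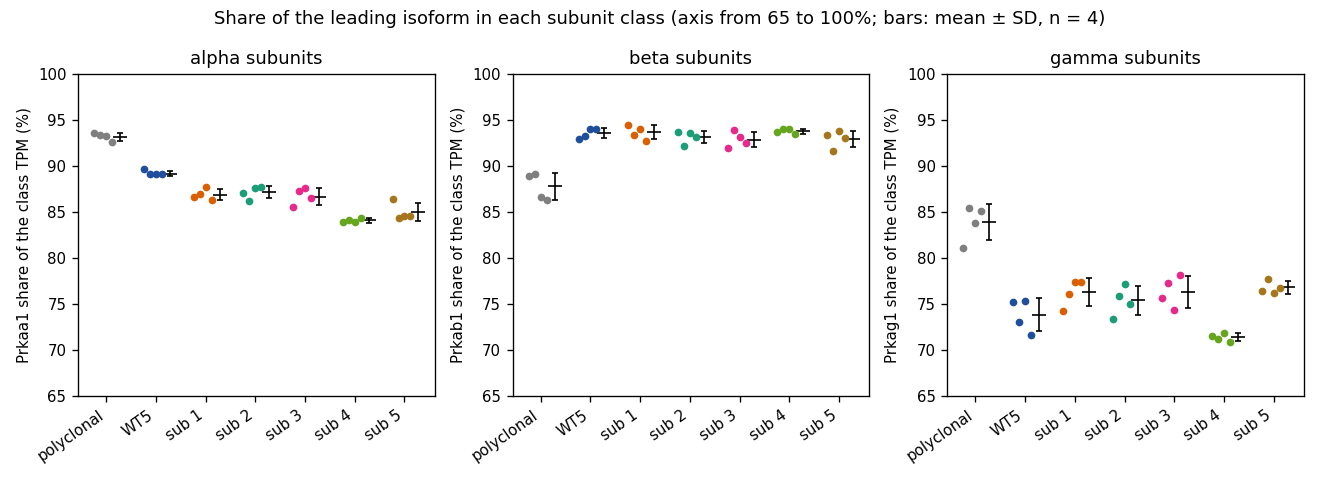
Share (%) of the leading isoform in the summed TPM of its subunit class, per library and group, with mean ± SD (n = 4); the axis runs from 65 to 100%. The Prkaa1 share falls from polyclonal cells (93.2%) to WT5 (89.2%) and subclone 4 (84.1%), and the Prkag1 share is lowest in subclone 4 (71.4%).

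Around the kinase itself, 3 lists were read: 13 regulators of AMPK (partners of LKB1, sestrins, the folliculin complex), 12 AMPK-related kinases that LKB1 also phosphorylates, and 30 substrates. In WT5 against polyclonal cells, 1 of the 13 regulators rose and 7 fell (median z-score difference -0.08, beside 0.00991 over all genes), 5 of 10 tested related kinases rose and 1 fell (median 0.12), and 12 of 30 substrates rose and 6 fell (median 0.02). Without z-scores the counts were 3 higher and 5 lower, 9 higher and 0 lower, and 18 higher and 6 lower, in that order. The share of all genes called without z-scores was not computed, so these counts are only a description. On that scale the median log2 difference over all genes was 0.24, a shift that enters the counts. With z-scores the shares of genes called, 61.5%, 60.0% and 60.0%, stood beside 65.5% of all genes.

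Among the regulators, Sesn1, a p53-induced sestrin, fell from 50.9 ± 2.67 to 14.0 ± 0.964 TPM (SD, n = 4; z-score difference -0.67, limma's adjusted p = 6.93e-08). Stradb, which encodes a pseudokinase partner of LKB1, fell from 22.9 ± 1.07 to 9.49 ± 0.461 TPM (-0.48, adjusted p = 2.77e-07). Camkk1, the paralogue of Camkk2, rose from 1.13 ± 0.229 to 5.19 ± 0.290 TPM (0.64, adjusted p = 1.38e-05), so that both calcium-dependent upstream kinases were higher in WT5. Of the related kinases, Nuak1 rose from 0.853 ± 0.0655 to 9.18 ± 1.57 TPM (1.02, adjusted p = 4.45e-07), Sik2, a salt-inducible kinase, from 2.07 ± 0.373 to 16.7 ± 2.86 TPM (0.90, adjusted p = 2.36e-06) and Brsk1 from 3.80 ± 0.465 to 13.3 ± 0.442 TPM (0.51, adjusted p = 2.76e-06). Of the substrates, Tbc1d4, a regulator of glucose transporter traffic, rose from 6.75 ± 0.762 to 40.3 ± 1.51 TPM (0.76, adjusted p = 1.78e-07) and Cftr from 0.275 ± 0.0451 to 1.61 ± 0.157 TPM (0.74, adjusted p = 7.87e-07). Ppargc1a, the coactivator of mitochondrial genes, fell from 6.05 ± 0.748 to 1.10 ± 0.158 TPM (-0.87, adjusted p = 6.84e-07).

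**Figure D4:**
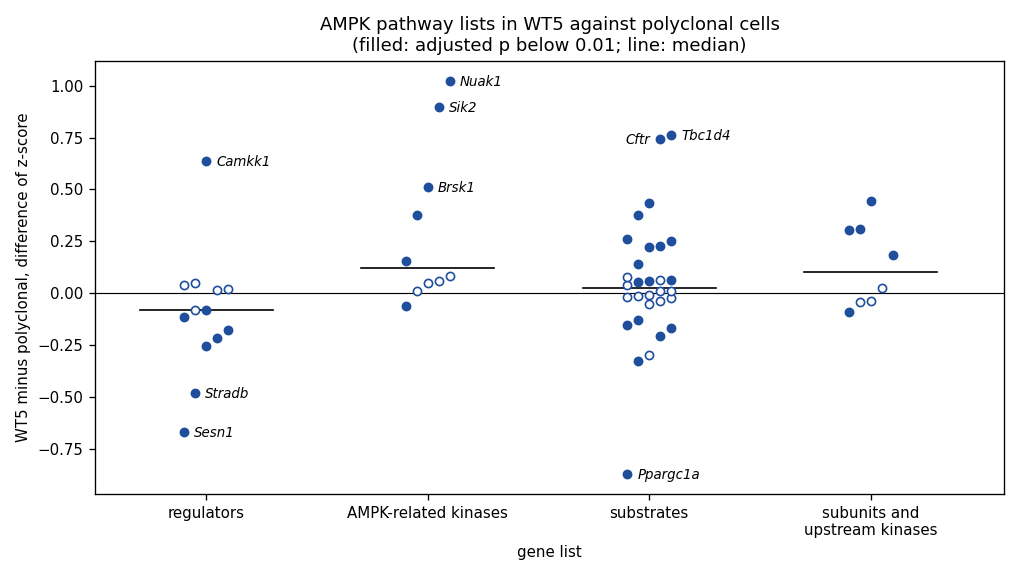
Difference of z-score (WT5 minus polyclonal) for each tested gene of the 3 lists and for the 8 subunit and upstream kinase genes, filled where limma's adjusted p is below 0.01, with a line at each list's median. Nuak1 (1.02), Sik2 (0.90) and Ppargc1a (-0.87) lie farthest from 0 among the genes plotted, and the largest difference of the 8 genes is 0.45.

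In the subclones against WT5, the regulators had 4 or 5 genes called higher and 0 to 3 lower per subclone, the related kinases 0 or 1 higher and 3 lower in each, and the substrates 3 to 7 higher and 4 to 10 lower. The shares of genes called in subclones 1 to 5 were 53.8, 46.2, 46.2, 61.5 and 30.8% of the regulators, 30.0, 30.0, 30.0, 40.0 and 30.0% of the related kinases and 43.3, 30.0, 26.7, 46.7 and 26.7% of the substrates, beside 26.3, 26.0, 19.5, 37.3 and 21.9% of all genes. Without z-scores the counts were 2 to 5 and 0 to 3, 0 or 1 and 3 or 4, and 1 to 5 and 4 to 12. For these counts too the share of all genes was not computed. Among the subclones the F test called 4 of 13 regulators (30.8%), 3 of 10 related kinases (30.0%) and 5 of 30 substrates (16.7%), beside 25.0% of all genes. Cftr had the smallest adjusted p of the substrates (1.64e-10), at 0.0525 ± 0.0275 TPM in subclone 4 and means of 2.02 to 3.17 TPM in the other subclones. Tbc1d1 followed (0.00013), with its lowest mean in subclone 4 as well (17.2 ± 1.49 TPM, against 20.7 to 23.9 TPM). Mark3, a polarity kinase, led the related kinases (1.25e-08), with 88.4 ± 1.86 TPM in subclone 4, 56.9 ± 5.41 TPM in subclone 5 and 68.1 to 70.7 TPM in subclones 1 to 3, and Nuak1 was next (0.000944), with means of 3.64 to 5.95 TPM. Of the regulators, Sesn1 (6.63e-06) had means from 16.2 to 22.0 TPM, and Camkk1 (0.000334) from 3.59 to 5.33 TPM. These p-values are adjusted over all genes by limma's F test.

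Over WT5 and the subclones, Prkaa2 had the widest range of group means (0.65 on the log2 scale), and the genes whose 6 group means followed it most closely among 11964 with a mean of at least 1 TPM were Orc3 (r = 0.983), Gm12184 (0.979), Zfp40 (0.978), Gm42878 (0.977) and Gm6136 (0.977). With 6 points per gene and 11964 genes searched, such values are a description, and WT5 and the subclones stand in different tables.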

How the data were processed

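As deposited by the authors, both tables hold TPM per gene, made by aligning filtered reads to GRCm38 with STAR 2.7.3a and quantifying genes with RSEM 1.3.1, with 2 decimals, 28 libraries and 45706 genes, of which 45143 carry a symbol. TPM keeps no depth, so no counting error can be given. Tables were joined by gene identifier. log2(TPM) was z-scored per library over genes above 0 TPM in all libraries of WT5 and polyclonal cells (13723) or of WT5 and the subclones (13860), and compared two-sided by limma 3.58.1 in R 4.3.3 on the libraries compared, or the 20 subclone libraries for the F test, with Benjamini-Hochberg adjustment and a threshold of 0.01. The study names an unequal-variance test, which is an alternative here. The scripts were tested on simulated data. Isoform shares were compared by exact permutation in Python 3.11.15 with scipy 1.17.1.

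The 9 genes and the pathway lists were chosen with earlier results of these data known. All 9 genes are named in every comparison. From each list, the 3 genes with the largest z-score difference among those called between WT5 and polyclonal cells and the 2 with the smallest adjusted p in the F test are named, and for the gene of widest range the 5 most similar. Gene positions come from GENCODE on GRCm38, promoters from RefSeq on GRCm38.p6, in which all 9 symbols were found. Alternatives changed the test, pseudocount, filter, scaling, threshold, block, libraries fitted and libraries left out. Same-numbered libraries did not deviate together (correlations from -0.0479 to 0.0671), so replicate numbers were not taken as pairs.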

Additional observations from a re-analysis of the deposited data

Results flagged for a closer look

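The subclones, which are all grown from WT5, differed among themselves by the F test in Prkaa2 (adjusted p = 0.002975), Prkab1 (adjusted p = 0.007588) and Prkag2 (adjusted p = 0.001614). The same test called 25.0% of all genes tested. Without z-scores, Prkaa2 (adjusted p = 0.0992) and Prkab1 (adjusted p = 0.153) no longer passed it. With each of the 20 libraries left out in turn, Prkab1 did not pass in 15 cases, Prkag2 in 1 and Prkaa2 in 0.

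A single library lay far from the other 3 of its group in 9 of the 63 groups of 4 looked at, where chance gives about 1 in 20. Of these, 3 are groups of Prkag3 with 3 libraries listed at 0, in which any value above 0 lies apart, and without that gene there were 6 in 56 groups. For Prkaa1 these were replicate 2 of subclone 3 at 34.53 TPM and replicate 1 of subclone 5 at 35.28 TPM, and for Prkaa2 replicate 1 of subclone 5 at 5.55 TPM, each below its group. For Prkab2 it was replicate 4 of subclone 4 at 7.86 TPM, for Prkag2 replicate 1 of subclone 1 at 36.18 TPM and for Camkk2 replicate 3 of WT5 at 32.04 TPM, each above its group. For Prkag3, replicate 2 of WT5 and replicate 2 of subclone 4 were at 0.02 TPM and replicate 3 of subclone 5 at 0.05 TPM, with the rest of their groups listed at 0.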

How the results depend on the processing

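In WT5 against polyclonal cells, 4 or 5 genes were called under every alternative run, but they were not always the same genes. Without z-scores Stk11, the only gene called lower, was lost and Prkag1 was gained. Stk11 was also lost when all libraries shared a fit. Genes with a log2 difference above 1 as well were 3 under every alternative run except centring on the library median. That left 1, because the threshold then applies to centred values. Under the replicate block, in which replicate numbers enter as pairs that the data gave no sign of, 0 genes were called in subclones 1, 2 and 3 and 1 in subclone 4, and the counts of the other comparisons stayed within 1.5 times. At an adjusted p below 0.05, 3 genes were called in subclone 1, 5 in subclone 4 and 3 in subclone 5. Without z-scores, 1 gene was called in subclone 2, 0 in subclone 3, 1 in subclone 4 and 1 among the subclones. The rule on a z-score difference has no value on that scale. The unequal-variance test called 0 in subclone 3, 1 in subclone 4 and 2 in subclone 5, and a fit of all libraries called 1 in subclone 2. With each library left out in turn, 1 to 2 genes were called in subclone 2, 0 to 1 in subclone 3 and 1 to 2 in subclone 4. Apart from the log2 rule on centred libraries, the share of all genes called was not computed under these alternatives. Their counts are therefore only a description. Where not shown above by fewer samples, the cause of a changed count was not tested. Over single genes, 1020 values kept their side of the threshold, 65 lost a call, 11 gained one and 0 called values reversed. Uncalled values changed sign in 28 cases. TPM holds no depth, so the precision of low genes such as Prkaa2 is known only from the spread of replicates.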
